A study of Homo sapiens with 4 samples.

Results

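The mitochondrial carrier family SLC25 was examined in ovarian cancer stem cells (OCSCs) after treatment with LY500307, an agonist of estrogen receptor beta. The family was taken as genes whose symbol is SLC25A followed by a number, of which 44 are reported here among the 23228 genes in the count tables. Of these, 39 had enough reads to be tested, among 14473 genes tested in all. SLC25A2, SLC25A6, SLC25A31, SLC25A47 and SLC25A48 had 0 to 3 reads in each sample and were not tested. No antisense RNA gene or pseudogene was among the 44.

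SLC25 proteins sit mainly in the inner mitochondrial membrane and pass small metabolites between the cytosol and the matrix, usually by exchanging one solute for another. They bring in ADP, phosphate, iron, amino acids, nucleotides and cofactors such as coenzyme A, and let out ATP and carboxylates such as citrate. A few members sit elsewhere, among them the peroxisomal cofactor carrier SLC25A17.

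SKOV3 is an ovarian cancer line of long standing, and its OCSCs were sorted for aldehyde dehydrogenase activity (ALDH+) with the ALDEFLUOR kit and grown as spheroids. Cells received vehicle (n = 2) or 5 µM LY500307 (n = 2) for 24 h, and the comparison asks which transcripts differ between the groups. All 4 samples came from this 1 cell line, with EGF, bFGF, hydrocortisone and insulin in the medium. The labels give total RNA read as single ends, while the methods describe a stranded mRNA library.

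Gene counts totalled 28841701 to 34943882 reads per sample. LY500307 replicate 2 stood apart, with 17.3% of its tallied reads on no gene, the lowest share of the 4 samples, and a TMM factor of 1.03, beside 0.986 to 0.994. Counts of the replicates differed with a chi-square per degree of freedom of 5.16 within vehicle and 42.5 within LY500307. Across genes, the log2 ratio to the vehicle mean followed exonic GC content in both treated samples, with a Spearman rho of 0.26 in replicate 1 and 0.33 in replicate 2. Values without LY500307 replicate 2 and with a GC correction are therefore given beside the carriers with a p below 0.05, the related genes called, and some of the others. CDKN1A, the p21 cell cycle inhibitor, was at 265 and 274 CPM (reads scaled to the TMM-adjusted library total) in vehicle and 418 and 473 CPM with LY500307. ESR2, which encodes estrogen receptor beta, had 7 to 12 reads per sample.

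The cell type labels were checked against marker genes. EPCAM (194 to 240 CPM), KRT18 (23.5 to 31.8 CPM) and ERBB2 (48.7 to 59.4 CPM) were present, KRT8 reached at most 1.02 CPM, and KRT7, CDH1 and MUC16 were below 1 CPM in every sample. PAX8, a transcription factor of Müllerian epithelium, had 0 reads in all 4 samples, and a count of 0 allows up to 0.104 CPM. The epithelial markers thus went both ways, with EPCAM, KRT18 and ERBB2 present and KRT8, PAX8, KRT7, CDH1 and MUC16 low or absent. Of the stromal collagens given below, COL3A1 was above EPCAM in every sample and COL1A1 was close to it. Cell identity was not tested, and the cells are named here by their labels. Of the ALDH isoforms, ALDH2 was at 61.7 to 69.1 CPM and ALDH1A1 at 4.71 to 5.41 CPM. Of 11 markers of blood, endothelial and stromal cells, 7 were below 1 CPM in every sample, while COL3A1 (440 to 517 CPM), COL1A1 (182 to 230 CPM), DCN (7.58 to 9.61 CPM) and HBB (up to 1.61 CPM) were not. Of the 11, 5 were tested. Both LY500307 samples were above both vehicle samples for COL3A1, COL1A1 and HBB (beside 24.2% of all genes). They were below them for DCN and for CD14, which reached at most 0.774 CPM (beside 24.4% of all genes). Only COL1A1 had an unadjusted p below 0.05 in edgeR (0.0214), which is 20.0% of those tested, beside 11.6% of all genes. The 11 markers summed to 634 and 642 CPM in vehicle and to 679 and 758 CPM with LY500307, and their part in the values below was not tested.

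Among the 39 carriers tested, 5 differed at an unadjusted p below 0.05 in the edgeR quasi-likelihood test, and all of these were higher with LY500307: SLC25A22, SLC25A33, SLC25A17, SLC25A11 and SLC25A3. These are carriers of glutamate, pyrimidine nucleotides, peroxisomal cofactors, oxoglutarate and phosphate. SLC25A33 also had a log2 fold change beyond 0.5 in size, and a gene that met both criteria is referred to as called. None of the 39 passed after adjustment over all genes, with adjusted p-values of 0.422 to 0.428 for these 5 in edgeR.

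The share of carriers with an unadjusted p below 0.05, 12.8%, stands beside 11.6% of all genes tested. All 5 were higher, where 6.09% of all genes were higher and 5.50% lower at that threshold. The 1 called carrier is 2.56% of those tested, beside 4.62% of all genes, of which 2.76% were higher and 1.86% lower. No gene in the whole table (0%) had an adjusted p below 0.05 in the reported edgeR fit. DESeq2 gave 16 such genes, with 0 carriers among them. It gave a p for 18407 genes but no adjusted p for some with few reads, among them SLC25A18, SLC25A27, SLC25A34, SLC25A41 and SLC25A45. With a replicate block and a GC correction together edgeR gave 77 of 14473, again with 0 carriers. At an unadjusted p below 0.05 DESeq2 gave 4 carriers, beside 7.69% of all genes, and it called 1, again SLC25A33, beside 3.07%. The smallest two-sided p of an exact permutation test on 1 gene is 0.333 with 2 samples a group, and these calls rest on the spread estimated across all genes.

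**Figure D1:**
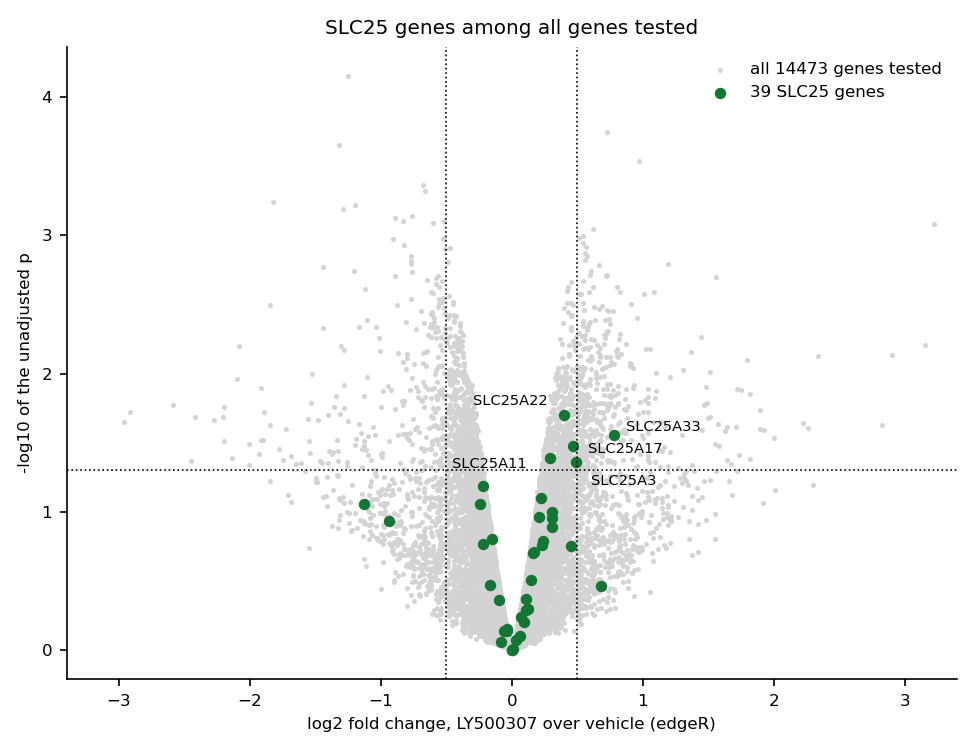
Log2 fold change of LY500307 over vehicle (x axis) against the negative log10 of the unadjusted edgeR p (y axis), with all genes tested in grey and the 39 SLC25 genes in green; dotted lines mark the 0.05 threshold and log2 fold changes of 0.5 in either direction. The 5 labelled carriers lie above the p line and to the right of 0, and 1 of them, SLC25A33, lies beyond 0.5.

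The median log2 fold change over the 39 carriers was 0.11, beside -0.00 over all genes tested. Of the 39, 26 had a log2 fold change above 0 (66.7%, beside 50.0% of all genes). In 13 carriers both LY500307 samples were above both vehicle samples (33.3%, beside 24.2% of all genes), in 7 both were below (beside 24.4% of all genes), and in 19 the groups overlapped.

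Most of this shift was in 1 sample. Relative to the vehicle mean, the carriers' median log2 ratio was 0.03 in LY500307 replicate 1, with 23 of 39 above 0, and 0.19 in LY500307 replicate 2, with 27 of 39 above 0, while the median over all genes was -0.00 in each. LY500307 replicate 2 was above replicate 1 in 30 of 39 carriers (76.9%), beside 50.6% of all genes tested. Without LY500307 replicate 2, 4 carriers had an unadjusted p below 0.05 (beside 15.3% of all genes), 1 of them higher (SLC25A22) and 3 lower (SLC25A35, SLC25A36 and SLC25A37), and 0 were called (beside 2.37%). Without LY500307 replicate 1, 21 carriers had a p below 0.05 (beside 40.3%) and 6 were called (beside 13.3%). In both of these fits the lone treated sample is assumed to vary as the vehicle samples do. Without vehicle replicate 1, SLC25A33, SLC25A17 and SLC25A34 had a p below 0.05 (beside 5.05% of all genes) and all 3 were called (beside 4.81%), with SLC25A34 lower. Without vehicle replicate 2, SLC25A33 and SLC25A45 had a p below 0.05 (beside 5.00%) and both were called (beside 4.78%). SLC25A22, SLC25A11 and SLC25A3 were in neither set, and here the lone vehicle sample is assumed to vary as the treated samples do.

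**Figure D2:**
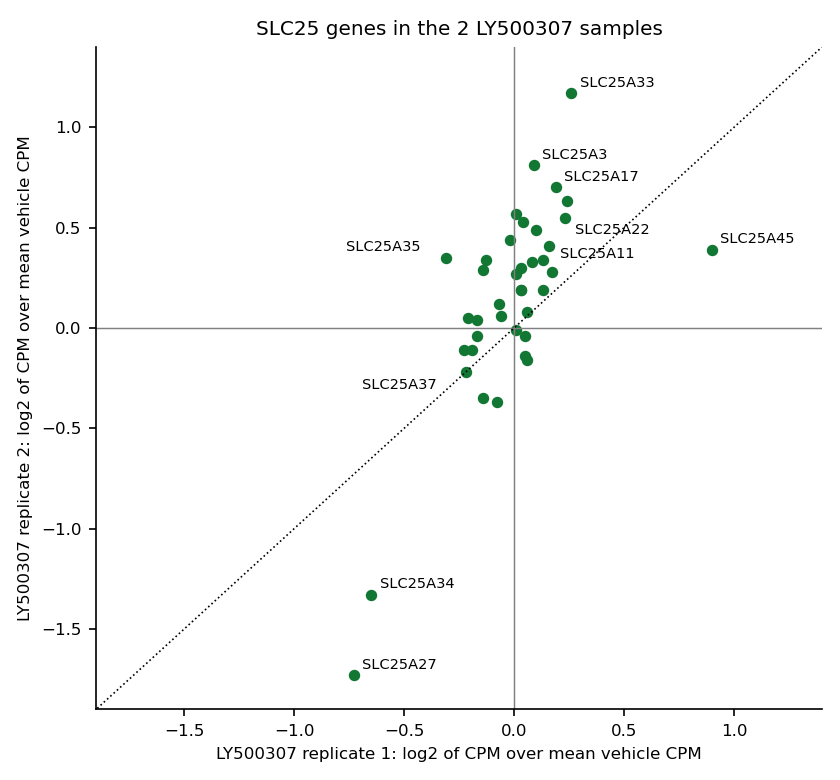
Log2 of CPM over the mean vehicle CPM for each of the 39 SLC25 genes in LY500307 replicate 1 (x axis) and LY500307 replicate 2 (y axis); the dotted diagonal marks equal values. SLC25A37 (-0.22 and -0.22) lies on the diagonal, while SLC25A33 (0.26 and 1.17) and SLC25A3 (0.09 and 0.81) lie far above it.

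The family made up a small part of the RNA. Its 44 genes took 0.2234% (Wilson 95% interval 0.2217 to 0.2251) and 0.2203% (0.2186 to 0.2220) of gene counts in the vehicle samples. They took 0.2254% (0.2239 to 0.2270) in LY500307 replicate 1 and 0.2853% (0.2834 to 0.2871) in LY500307 replicate 2. These intervals cover counting error only. SLC25A6 enters the sums with a count of 0 that, for reasons given below, is not read as absence. LY500307 replicate 1 lay close to both vehicle samples, and LY500307 replicate 2 was above all of them. Much of that excess was SLC25A3, which took 18.1 and 17.4% of the summed CPM of the family in vehicle, 18.8% in LY500307 replicate 1 and 25.3% in LY500307 replicate 2. Without SLC25A3 the summed CPM was 1853 and 1845 in vehicle, 1843 in LY500307 replicate 1 and 2060 in LY500307 replicate 2.

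Levels were compared between carriers as CPM per kb of exons of the canonical transcript. SLC25A6, with its count of 0, could not be placed on this scale. Among the 39 carriers tested the vehicle mean was highest for SLC25A5, an ADP/ATP carrier, at 202 ± 5.02 (SD, n = 2). SLC25A39, which supplies the matrix with glutathione, came next at 80.5, ahead of the phosphate carrier SLC25A3 at 66.8, the aspartate-glutamate carrier SLC25A13 at 45.5 and the ATP-Mg/phosphate carrier SLC25A23 at 42.9. The order depends on which length is used: per kb of coding sequence SLC25A3 (369) was above SLC25A5 (295), SLC25A39 moved from rank 2 to rank 4 and SLC25A13 from rank 4 to rank 7. At the other end, SLC25A18, SLC25A27, SLC25A34, SLC25A41 and SLC25A45 were below 1 CPM per kb in vehicle. The standard error of the log2 fold change ranged from 0.10 for SLC25A13 to 0.67 for SLC25A45. The largest, 0.47 to 0.67, were those of SLC25A27, SLC25A34, SLC25A41 and SLC25A45, which had few reads. Among the others errors did not simply follow reads: SLC25A3, with the most reads, had 0.21, and SLC25A14, with far fewer, had 0.16.

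**Figure D3:**
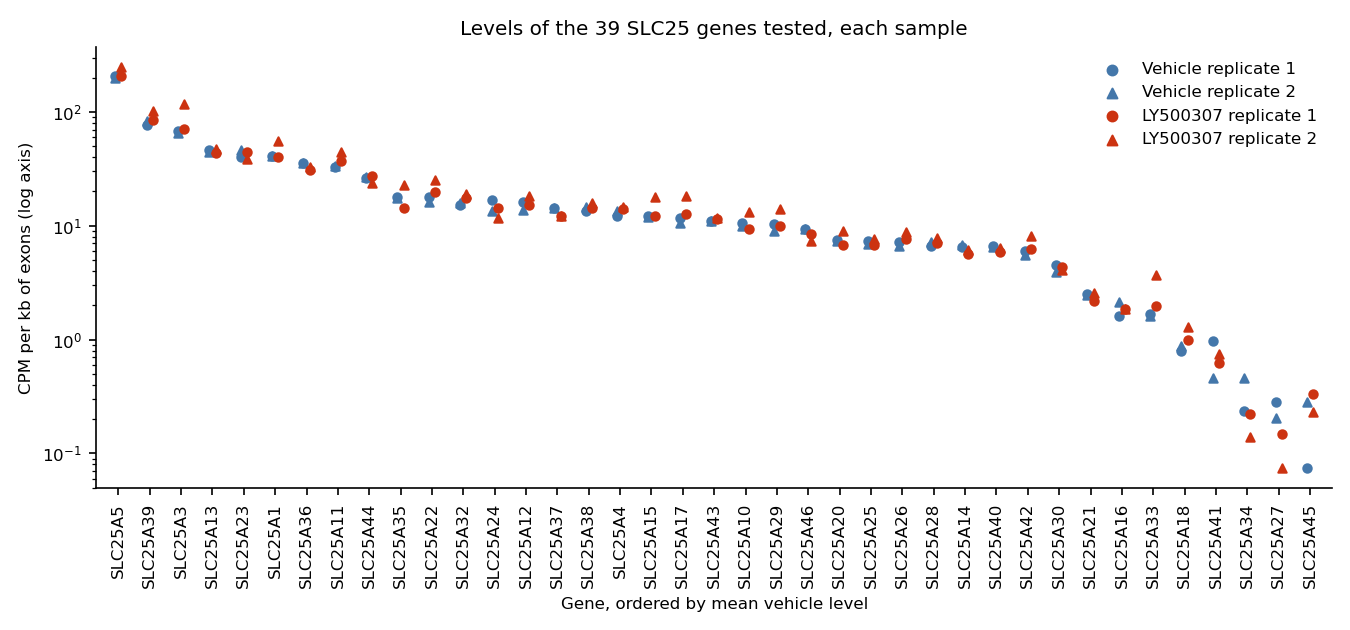
Level of the 39 tested SLC25 genes as CPM per kb of exons (log axis) in each of the 4 samples, ordered by mean vehicle level; blue marks vehicle, red LY500307, circles replicate 1 and triangles replicate 2. SLC25A5 is highest at about 202 in vehicle, and in 19 of the 39 genes the samples of the groups overlap.

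Nucleotide and cofactor carriers held 2 of the 5 carriers with a p below 0.05, and the called one was among them. These are 2 and 1 of the 7 tested in this group, beside 11.6 and 4.62% of all genes. In 5 of the 7 both LY500307 samples were above both vehicle samples (71.4%, beside 24.2% of all genes), and their median log2 fold change was 0.24. Whether fewer or more cells of a kind, or less or more RNA per cell, lies behind a level cannot be told apart in bulk samples.

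SLC25A33 and SLC25A36 are paralogs that carry pyrimidine nucleotides, used in the matrix for mitochondrial DNA and RNA synthesis. The 250 bases before the RefSeq start of each are shown because the pair differed in the direction of its values and both windows hold the E-box and the cyclic AMP response element, together with the window of SLC25A17, which holds an estrogen response half-site. Capitals mark the matches, E-box CACGTG, cyclic AMP response element TGACGTCA and half-site GGTCA or its complement TGACC. The windows are chr1:9599274-9599523 (plus strand) for SLC25A33, chr3:140660428-140660677 (plus strand) for SLC25A36 and chr22:41215351-41215600 (minus strand) for SLC25A17 in GRCh37.
SLC25A33: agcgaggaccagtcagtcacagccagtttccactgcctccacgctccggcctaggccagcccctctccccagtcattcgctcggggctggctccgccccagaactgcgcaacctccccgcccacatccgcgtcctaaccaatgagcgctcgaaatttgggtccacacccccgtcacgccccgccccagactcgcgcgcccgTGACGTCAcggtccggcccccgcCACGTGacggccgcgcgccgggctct
SLC25A36: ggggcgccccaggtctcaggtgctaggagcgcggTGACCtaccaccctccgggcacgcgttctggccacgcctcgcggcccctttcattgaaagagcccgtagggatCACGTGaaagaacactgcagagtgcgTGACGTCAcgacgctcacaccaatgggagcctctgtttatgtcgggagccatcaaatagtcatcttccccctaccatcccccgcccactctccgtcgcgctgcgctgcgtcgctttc
SLC25A17: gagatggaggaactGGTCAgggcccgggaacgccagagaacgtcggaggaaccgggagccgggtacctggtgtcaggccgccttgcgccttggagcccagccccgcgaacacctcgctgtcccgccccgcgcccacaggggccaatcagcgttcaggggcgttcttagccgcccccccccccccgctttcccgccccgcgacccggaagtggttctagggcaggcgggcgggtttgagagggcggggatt

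SLC25A33 (chr1:9599524-9645231, plus strand) was at 6.51 and 6.19 CPM in vehicle, 7.58 CPM in LY500307 replicate 1 and 14.3 CPM in LY500307 replicate 2. The groups did not overlap, but the high value came from a single sample. The gene's log2 fold change was 0.78 with a standard error of 0.29 (edgeR unadjusted p = 0.0278, 1.72-fold), 0.82 after GC correction and 1.17 without LY500307 replicate 1. Without LY500307 replicate 2 it was 0.26 (unadjusted p = 0.248), the single alternative of 12 in which it was not called.

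SLC25A36 (chr3:140660672-140699837, plus strand) was at 202 and 203 CPM in vehicle and at 177 and 187 CPM with LY500307. Both treated samples were below both vehicle samples. The log2 fold change was -0.15 with a standard error of 0.10 (edgeR unadjusted p = 0.157), was -0.19 without LY500307 replicate 2 (unadjusted p = 0.00279), and was -0.00 after GC correction (unadjusted p = 0.970). The difference between the paralogs was not tested.

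SLC25A17 exchanges coenzyme A, FAD and NAD across the peroxisomal membrane. It was at 26.3 and 23.4 CPM in vehicle, 28.3 CPM in LY500307 replicate 1 and 40.3 CPM in LY500307 replicate 2, so that the groups did not overlap and replicate 2 was highest. Its log2 fold change was 0.47 with a standard error of 0.18 (edgeR unadjusted p = 0.0335). It passed 0.5 in 5 of 12 alternatives, among them the GC correction (0.55, unadjusted p = 0.0234), and was 0.19 (unadjusted p = 0.137) without LY500307 replicate 2.

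The other 4 carriers of this group had p-values above 0.05. SLC25A42, a coenzyme A carrier, had a log2 fold change of 0.31 (0.10 without LY500307 replicate 2), SLC25A26, which carries the methyl donor S-adenosylmethionine, 0.24, SLC25A32, a folate and FAD carrier, 0.22, and SLC25A16 -0.00. After GC correction SLC25A32 was at 0.32 (unadjusted p = 0.0260).

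Promoter windows in the RefSeq table were matched for 37 of the 44 carriers, which gave 48 windows. Both strands were searched. The full estrogen response element, GGTCA and TGACC with 3 bases between, was in 0 of the 48 windows (0.0399% of all 35116 windows). The ERR-type element TCAAGGTCA (0.319%) and the NRF-1 element (1.03%), which is GCGC and GCGC around AT, were in 0 of the 48 as well. The half-site GGTCA, whose letters are also part of the first and second of these, was in 12 carriers and 15 of 48 windows (32.6% of all windows). Of the carriers with a p below 0.05 it was in SLC25A17 and SLC25A22. The E-box CACGTG was in 7 of the 48 windows (6.34% of all windows) and the cyclic AMP response element TGACGTCA in 3 of 48, those of SLC25A25, SLC25A33 and SLC25A36 (1.65% of all windows). The last motif was searched after these windows had been read. Over the 15922 windows of tested genes the shares of the 6 motifs were 0.0126, 0.151, 1.57, 29.6, 8.08 and 2.39%, in the order given. Matches describe letters in windows and not binding.

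**Figure D4:**
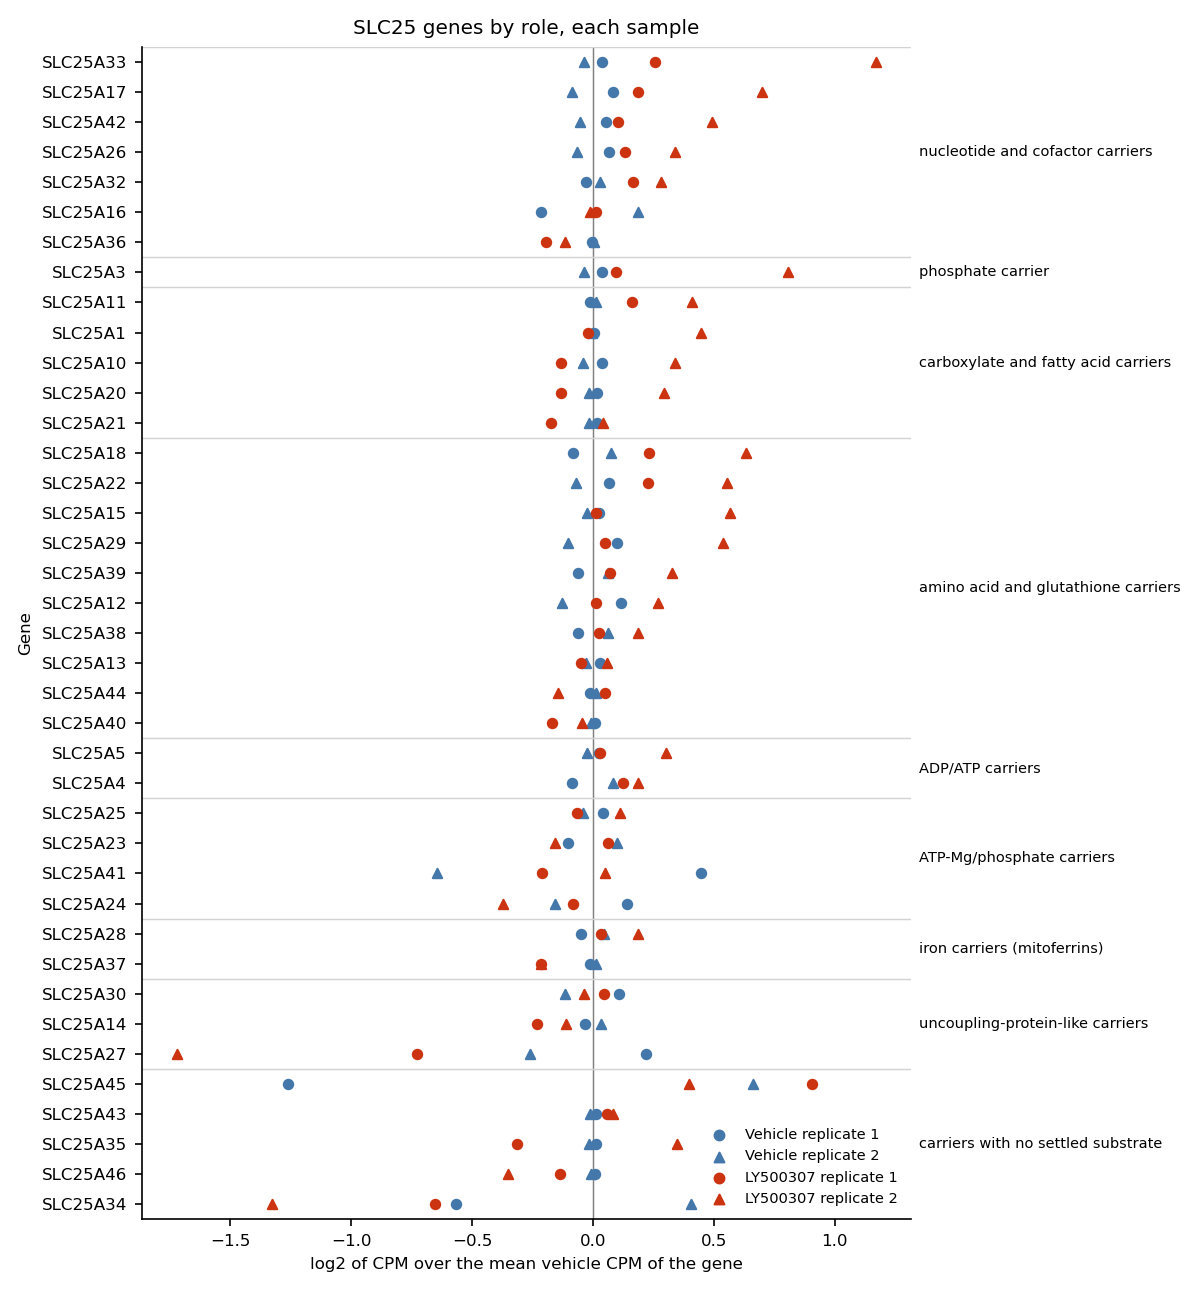
Log2 of CPM over the mean vehicle CPM (x axis) for the 39 tested SLC25 genes, grouped by role (y axis), in each of the 4 samples; blue marks vehicle, red LY500307, circles replicate 1 and triangles replicate 2. In SLC25A37 the LY500307 points coincide at -0.22, while in SLC25A33, SLC25A17 and SLC25A3 replicate 2 lies well to the right of replicate 1.

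The phosphate carrier and the ADP/ATP carriers supply ATP synthase with its substrates. SLC25A3, the phosphate carrier (chr12:98987369-99000157, plus strand), was at 410 and 390 CPM in vehicle, 427 CPM in LY500307 replicate 1 and 699 CPM in LY500307 replicate 2. It had the most reads of the family, 11084 to 22605 per sample, and the groups did not overlap. Its fitted log2 fold change was 0.49 with a standard error of 0.21 (edgeR unadjusted p = 0.0436). Without LY500307 replicate 2 the value was 0.10 (unadjusted p = 0.0609), and without LY500307 replicate 1 it was 0.81. It was called in 4 of 12 alternatives, among them the GC correction (0.57, unadjusted p = 0.0336). The annotation names 3 pseudogenes of SLC25A3.

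SLC25A5, the main ADP/ATP carrier of dividing cells, was at 268 and 259 CPM in vehicle and at 269 and 325 CPM with LY500307. SLC25A4, the heart and muscle form, was at 53.3 and 60.0 CPM in vehicle and at 61.8 and 64.5 CPM with LY500307. In both genes the treated samples were above the vehicle samples by a narrow margin, and neither passed the test, with log2 fold changes of 0.17 with a standard error of 0.12 (edgeR unadjusted p = 0.193) and 0.16 with a standard error of 0.11 (unadjusted p = 0.197). Without LY500307 replicate 2 SLC25A5 was at 0.03 and SLC25A4 at 0.13, and after GC correction they were at 0.18 and 0.19. SLC25A5 has 9 named pseudogenes, so part of its reads may be shared with near-identical copies. SLC25A31, the testis form, and SLC25A6 had 0 reads in all 4 samples. For SLC25A31 this allows up to 0.0859 to 0.104 CPM, depending on the sample. SLC25A6 lies in the pseudoautosomal region, where the X and Y copies have the same sequence, and has 6 named pseudogenes. Non-unique alignments were 32.3 to 33.4% of the reads tallied, and whether they hold SLC25A6 reads was not tested. The SLC25A6 count of 0 is therefore not read as absence, and no upper limit is given for it.

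ATP-Mg/phosphate carriers adjust the adenine nucleotide pool of the matrix, some of them in response to calcium. None of the 4 passed the test, and their median log2 fold change was -0.06. SLC25A23, the highest of them, was at 139 and 160 CPM in vehicle and at 156 and 134 CPM with LY500307, with a log2 fold change of -0.04 and a standard error of 0.12 (edgeR unadjusted p = 0.720). SLC25A24 was at -0.22, SLC25A25 at 0.03 and SLC25A41, which had few reads, at -0.08.

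Carboxylate and fatty acid carriers had a median log2 fold change of 0.12, and 1 of 5 had a p below 0.05 (20.0%, beside 11.6% of all genes). SLC25A11 exchanges oxoglutarate for malate in the malate-aspartate shuttle. It was at 55.8 and 56.8 CPM in vehicle and at 63.0 and 74.8 CPM with LY500307, with both treated samples above both vehicle samples. The gene's log2 fold change was 0.29 with a standard error of 0.12 (edgeR unadjusted p = 0.0406), and it was 0.22 (unadjusted p = 0.0789) after GC correction and 0.16 (unadjusted p = 0.0838) without LY500307 replicate 2.

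SLC25A1, the citrate carrier that feeds cytosolic acetyl-CoA and lipid synthesis, was at 63.1 and 62.8 CPM in vehicle, 62.1 CPM in LY500307 replicate 1 and 85.7 CPM in LY500307 replicate 2. Replicate 1 lay just below the vehicle samples and the groups overlapped. The log2 fold change was 0.23 with a standard error of 0.15 (edgeR unadjusted p = 0.172), 0.09 after GC correction and -0.02 without LY500307 replicate 2. The dicarboxylate carrier SLC25A10 (0.12), the carnitine-acylcarnitine carrier SLC25A20 (0.09) and the oxodicarboxylate carrier SLC25A21 (-0.06) overlapped between groups as well.

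Amino acid and glutathione carriers had a median log2 fold change of 0.18 over the 10 tested, with 1 at a p below 0.05. SLC25A22, a glutamate carrier (chr11:790475-798281, minus strand), was at 47.0 and 42.8 CPM in vehicle, 52.6 CPM in LY500307 replicate 1 and 65.9 CPM in LY500307 replicate 2. Both treated samples were above both vehicle samples. Its log2 fold change was 0.40 with a standard error of 0.14 (edgeR unadjusted p = 0.0200), 0.23 (unadjusted p = 0.0254) without LY500307 replicate 2 and 0.27 (unadjusted p = 0.0535) after GC correction. SLC25A22 overlaps PANO1 on the opposite strand.

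The aspartate-glutamate carriers, the calcium-regulated arm of the malate-aspartate shuttle, overlapped between groups. SLC25A13 was at 146 and 140 CPM in vehicle and 138 and 149 CPM with LY500307, a log2 fold change of 0.00 with a standard error of 0.10 (edgeR unadjusted p = 0.997). SLC25A12 was at 64.2 and 54.2 CPM in vehicle and 59.7 and 71.4 CPM with LY500307, a log2 fold change of 0.15 with a standard error of 0.13 (unadjusted p = 0.311), and 0.01 without LY500307 replicate 2.

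SLC25A39, needed for glutathione import, was at 122 and 133 CPM in vehicle and at 134 and 160 CPM with LY500307. The lower treated sample was barely above the higher vehicle sample, and the log2 fold change was 0.21 with a standard error of 0.12 (edgeR unadjusted p = 0.109), 0.10 after GC correction and 0.08 without LY500307 replicate 2. Its paralog SLC25A40 had a log2 fold change of -0.10. The ornithine carrier SLC25A15 (0.31, unadjusted p = 0.110) and the basic amino acid carrier SLC25A29 (0.31, unadjusted p = 0.129) were highest in LY500307 replicate 2 and were at 0.01 and 0.05 without it. SLC25A15 was at 68.3 CPM there and at 45.4 to 46.9 CPM in the other 3 samples, and SLC25A29 was at 20.5 to 23.6 CPM outside that sample. The glycine carrier SLC25A38 was at 0.11, the branched-chain amino acid carrier SLC25A44 at -0.04 and the second glutamate carrier SLC25A18, with 1.74 to 2.85 CPM, at 0.45 with a standard error of 0.30.

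The mitoferrins bring iron into the matrix for heme and iron-sulfur cluster synthesis. SLC25A37 (mitoferrin 1) was at 66.1 and 67.1 CPM in vehicle and at 57.3 CPM in both LY500307 samples. Both treated samples were below both vehicle samples, and the replicates differed little. Its fitted log2 fold change was -0.22 with a standard error of 0.10 (edgeR unadjusted p = 0.0650), -0.22 (unadjusted p = 0.0215) without LY500307 replicate 2 and -0.23 (unadjusted p = 0.0518) after GC correction. SLC25A28 (mitoferrin 2) was at 10.2 and 10.9 CPM in vehicle and at 10.8 and 12.0 CPM with LY500307, a log2 fold change of 0.11 with a standard error of 0.16 (unadjusted p = 0.515). The groups overlapped for SLC25A28, and the difference between the mitoferrins was not tested.

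None of the carriers related to uncoupling proteins passed the test, with log2 fold changes of -1.13 for SLC25A27, -0.17 for SLC25A14 and 0.01 for SLC25A30. SLC25A27 had few reads, at 0.834 and 0.598 CPM in vehicle and at 0.432 and 0.217 CPM with LY500307 (standard error 0.58, edgeR unadjusted p = 0.0878). Of the 5 tested carriers with no settled substrate, 0 had a p below 0.05 in edgeR. SLC25A46, which acts in mitochondrial fission at the outer membrane, was at -0.24, SLC25A43 at 0.07, SLC25A35 at 0.06, and SLC25A34 and SLC25A45, with at most 1.44 CPM, at -0.94 and 0.68. SLC25A45 ranged from 0.01 without vehicle replicate 1 to 1.91 without vehicle replicate 2, and SLC25A34 from -1.35 to -0.38. SLC25A35 was 27.9 CPM in LY500307 replicate 1 and 44.1 CPM in LY500307 replicate 2, on either side of the vehicle samples at 35.0 and 34.3 CPM.

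Carriers of high and low exonic GC content were also counted apart: 2 of the 19 with exonic GC content above the median of all genes tested (48.6%) and 3 of the other 20 had a p below 0.05 (10.5 and 15.0%, beside 11.6% of all genes). The median log2 fold change was 0.11 in the former and 0.04 in the latter. After GC correction 4 carriers had a p below 0.05 (beside 9.78% of all genes) and 3 were called (beside 3.86%): SLC25A33, SLC25A17 and SLC25A3. With library totals alone in place of TMM, 5 had a p below 0.05 (beside 11.5%) and the same 3 were called (beside 4.80%). With a replicate block 4 had a p below 0.05 (beside 11.2%) and 1 was called (beside 4.95%), and with the block and the GC correction together 5 had a p below 0.05 (beside 10.6%) and 3 were called (beside 4.17%).

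**Figure D5:**
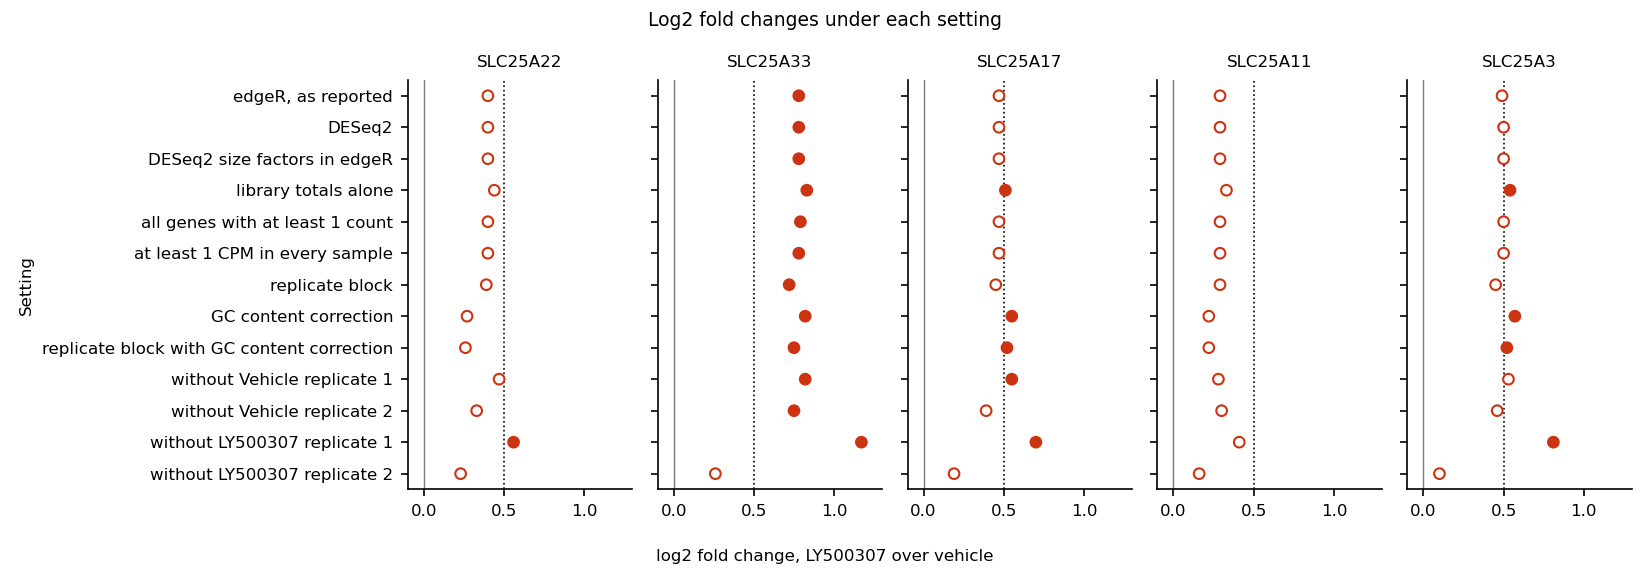
Log2 fold change of LY500307 over vehicle (x axis) for the 5 carriers with an unadjusted p below 0.05, under the reported edgeR fit and the 12 alternatives (y axis); filled points met both call criteria, and the dotted line marks a log2 fold change of 0.5. SLC25A33 spans 0.26 to 1.17 and SLC25A3 0.10 to 0.81.

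Genes that work with the carriers were counted in the same way. Of 7 tested relatives of the family under other symbols, 1 was called (14.3%, beside 4.62% of all genes), the uncoupling protein UCP2, at 63.8 and 58.1 CPM in vehicle and at 75.3 and 99.8 CPM with LY500307. Both treated samples of UCP2 were above both vehicle samples, and its log2 fold change was 0.52 with a standard error of 0.15 (edgeR unadjusted p = 0.00746), 0.31 (unadjusted p = 0.000672) without LY500307 replicate 2. It was not called there, nor after GC correction (0.46, unadjusted p = 0.0119) or without vehicle replicate 2 (0.46, unadjusted p = 0.0595).

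The carrier import machinery, which threads these proteins through the outer membrane and into the inner one, had 3 of 16 genes at a p below 0.05 (18.8%, beside 11.6% of all genes), all higher, 1 of them called (6.25%, beside 4.62%), and a median log2 fold change of 0.05. The TIM22 complex subunit TIMM29, listed as C19orf52, was called (15.0 and 15.2 CPM in vehicle, 18.3 and 27.1 CPM with LY500307, log2 fold change 0.58, edgeR unadjusted p = 0.0186) and was at 0.27 (unadjusted p = 0.0753) without LY500307 replicate 2 and 0.47 (unadjusted p = 0.0286) after GC correction, short of a call in both. The small Tim chaperone TIMM8B (0.50, unadjusted p = 0.0239) and the TOM complex subunit TOMM7 (0.30, unadjusted p = 0.0452) were not called and were named after their values were seen.

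Of 23 other mitochondrial membrane transporters, 1 had a p below 0.05 and was called (4.35%, beside 11.6 and 4.62% of all genes), and the median log2 fold change was 0.07. This was SMDT1, listed as C22orf32, a subunit of the calcium uniporter, at 11.5 and 11.1 CPM in vehicle, 13.6 CPM in LY500307 replicate 1 and 24.9 CPM in LY500307 replicate 2. The gene's log2 fold change was 0.77 with a standard error of 0.27 (edgeR unadjusted p = 0.0203), 0.77 (unadjusted p = 0.0244) after GC correction and 0.27 (unadjusted p = 0.119) without LY500307 replicate 2. As in SLC25A33, the high value came from 1 sample.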

How the data were processed

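RNA-seq counts of SKOV3-ALDH+ OCSCs treated with vehicle (n = 2) or LY500307 (n = 2) were analysed. The deposited values are raw read counts per gene symbol, made by the authors without normalization. The submitters' processing notes name bcl2fastq, TopHat2 2.0.8b, HTSeq and the hg19 build. Whether HTSeq counted by strand is not given in the sources used here. Per the deposited text, the sequencing was run in duplicate and raw reads were combined, and nothing says that replicates were separate cultures, so that p-values measure only the spread between these samples, which may be technical. HTSeq's tally lines were left out of totals and tests. Reads on no gene were 17.3 to 20.5% of all tallied, ambiguous reads 0.44 to 0.481% and non-unique alignments 32.3 to 33.4%.

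Tests used edgeR 4.0.16 in R 4.3.3: TMM scaling, filterByExpr, and quasi-likelihood tests with group as the only term, with Benjamini-Hochberg adjustment over all 14473 genes tested. Standard errors are the size of the log2 fold change over the root of F. DESeq2 1.42.0, the test that the study's methods name, was an alternative. A gene was called by the criteria of those methods, an unadjusted p below 0.05 with a log2 fold change beyond 0.5 in size. CPM values are scaled to TMM-adjusted totals, and upper limits for a count of 0 (3 reads) to gene totals.

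The carriers, role groups and related gene lists were chosen with earlier results of these data known. A member of the family is not reported here and was left out of every count and sum over the carriers. Values in every sample are given for members with an unadjusted p below 0.05, for the ADP/ATP, phosphate, iron, aspartate-glutamate, citrate and pyrimidine nucleotide carriers, and for the 5 highest levels per exonic length. Other members are named with fewer values, and genes of the related lists where called. Any further name was picked with its value in view.

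Alternatives were DESeq2 and edgeR with size factors of DESeq2 or with library totals alone. Others were filters of at least 1 count in all or 1 CPM in every sample, a replicate block, a GC correction, both together, and leaving out each sample. For the GC correction, log2 CPM (prior count of 2) was fitted on exonic GC content by loess (span 0.3) in each sample. The fitted values, centred by gene and by sample, entered the edgeR model as offsets. Of the genes tested 13625 had a GC value, and the rest were left uncorrected. Ranking by coding length was added after the data were seen. Same-numbered samples did not deviate together (correlation across genes -0.07), so the replicate numbers were not taken as pairs. Exonic and coding lengths are of Ensembl canonical transcripts (GENCODE 44 lifted to GRCh37), and 84.96% of 23228 symbols were matched. Promoters are RefSeq's GRCh38.p14 windows, placed on GRCh37 by exact match. Scripts were tested on simulated counts.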

Additional observations from a re-analysis of the deposited data

How the results depend on the processing

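With 2 samples a group and LY500307 replicate 2 apart from the rest, the counts of carriers depended on which sample was left out. The reported fit called 1 carrier, and leaving out each sample gave 0 to 6 called, 2 to 21 with an unadjusted p below 0.05 and a median log2 fold change of 0.03 to 0.19. The fit without LY500307 replicate 2 called 0 carriers and gave 4 with a p below 0.05. Library totals alone, the GC correction, and the replicate block with the GC correction each called 3. The replicate block alone called 1 carrier (beside 4.95% of all genes) and gave 4 with a p below 0.05 (beside 11.2%). The fit without it gave 5. The labels do not say whether same-numbered samples are pairs, and the reported fit did not take them as pairs. The other alternatives called 1 carrier and gave medians of 0.08 to 0.11. Why they differ was not tested. Depth limits SLC25A27, SLC25A34 and SLC25A45, with standard errors of 0.53 to 0.67.

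Carriers that changed sign under some settings had reported log2 fold changes of at most 0.23 in size, the value of SLC25A1. No carrier with an unadjusted p below 0.05 in the reported edgeR fit changed sign. SLC25A16 was 0.04 with library totals alone, 0.00 with all genes of at least 1 count, 0.01 with the replicate block, 0.08 with the GC correction and 0.09 with both. SLC25A13 was -0.00 with the replicate block. With the GC correction SLC25A10 was -0.03, SLC25A21 0.10, SLC25A25 -0.04, SLC25A35 -0.01 and SLC25A40 0.07. With the block and the GC correction together they were -0.04, 0.09, -0.04, -0.04 and 0.07. When each sample was left out in turn, the log2 fold changes that changed sign spanned -0.02 to 0.45 for SLC25A1, -0.13 to 0.35 for SLC25A10, -0.05 to 0.06 for SLC25A13, -0.19 to 0.21 for SLC25A16, -0.14 to 0.30 for SLC25A20, -0.17 to 0.04 for SLC25A21 and -0.15 to 0.06 for SLC25A23. They spanned -0.06 to 0.12 for SLC25A25, -0.10 to 0.13 for SLC25A30, -0.31 to 0.35 for SLC25A35, -0.52 to 0.57 for SLC25A41 and -0.14 to 0.05 for SLC25A44.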
